A study of Mus musculus with 8 samples.

Results

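Elastin and the proteins that build elastic fibres around it were followed in cultured mouse tail tendon fibroblasts (tenocytes) that kept or had lost Scx, the gene of scleraxis, a transcription factor of tendon cells. The genes were taken by symbol from the deposited count table: Eln, Fbn1, Fbln2, Fbln5, Efemp1, Efemp2, Emilin1, Mfap2, Mfap4 and Mfap5, 10 of the 24982 genes with a row. All 10 had a row, and 9 passed the filter on low counts that left 13125 genes for testing; Mfap4 did not. Latent TGF-beta binding proteins were not among the 10 and appear below with other related genes.

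RNA was sequenced from 8 libraries of C57Bl/6 mouse cells, every one treated with 4-hydroxytamoxifen (4HT). The Scx+ genotype, called Scx-positive here, had 4 libraries, numbered 2, 3, 5 and 6, and the Scx- genotype, called Scx-deleted, had 4, numbered 2, 3, 4 and 5. The age of the mice, the driver of the deletion and the deleted part of Scx are not stated in the labels. Nor do they say how many animals or cultures the libraries represent, so the p-values cover just the variation among these 8 libraries, part or all of which could be technical. The study asked how mRNA levels differ between tenocytes with and without scleraxis.

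Elastic fibres give tissues recoil after stretch. Their core is cross-linked elastin, secreted as soluble tropoelastin, and it is laid down on a scaffold of microfibrils made mostly of fibrillin. Fibulins, emilins and microfibril-associated proteins link the core, the microfibrils, the cross-linking enzymes and the cell surface. In tendon, elastic fibres are a small part of a matrix dominated by collagen and lie between fascicles and around cells.

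The libraries held between 17343228 and 25180790 gene counts. Scx had 132 to 252 counts per Scx-positive library and 1 to 3 per Scx-deleted library, matching the labels. Tendon fibroblast genes were present, with Col1a1, a type I collagen chain, at 3921 ± 507 CPM, the tendon matrix gene Thbs4 at 971 ± 190 CPM and the tenocyte marker Tnmd at a low 6.93 ± 0.972 CPM in Scx-positive libraries (SD, n = 4 each; CPM are counts scaled to a common library size with TMM factors). Replicate 5 of the Scx-positive group lay far from the other libraries on the second principal component of log2 CPM, at 18.6 against -9.63 to 3.79, a component holding 12.9% of the variance. Results that rest on it are given with and without it.

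Eln had the largest change of the 9 tested genes. Of the 9 tested genes, 5 fell (Eln, Fbn1, Efemp1, Emilin1 and Mfap2) and 0 rose, by edgeR's quasi-likelihood test at a Benjamini-Hochberg adjusted p under 0.05. Over all tested genes, 14.5% fell and 14% rose, 28.5% in all. The median log2 change was -0.16 over these 9 genes and -0.0053 over all tested genes. Every Scx-deleted library lay below every Scx-positive library in these same 5 of the 9 tested genes, and in 14.3% of all tested genes. The calls came from the same libraries, so this separation is not separate evidence. In bulk RNA such as this, fewer cells of a type and less RNA per cell cannot be told apart.

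**Figure D1:**
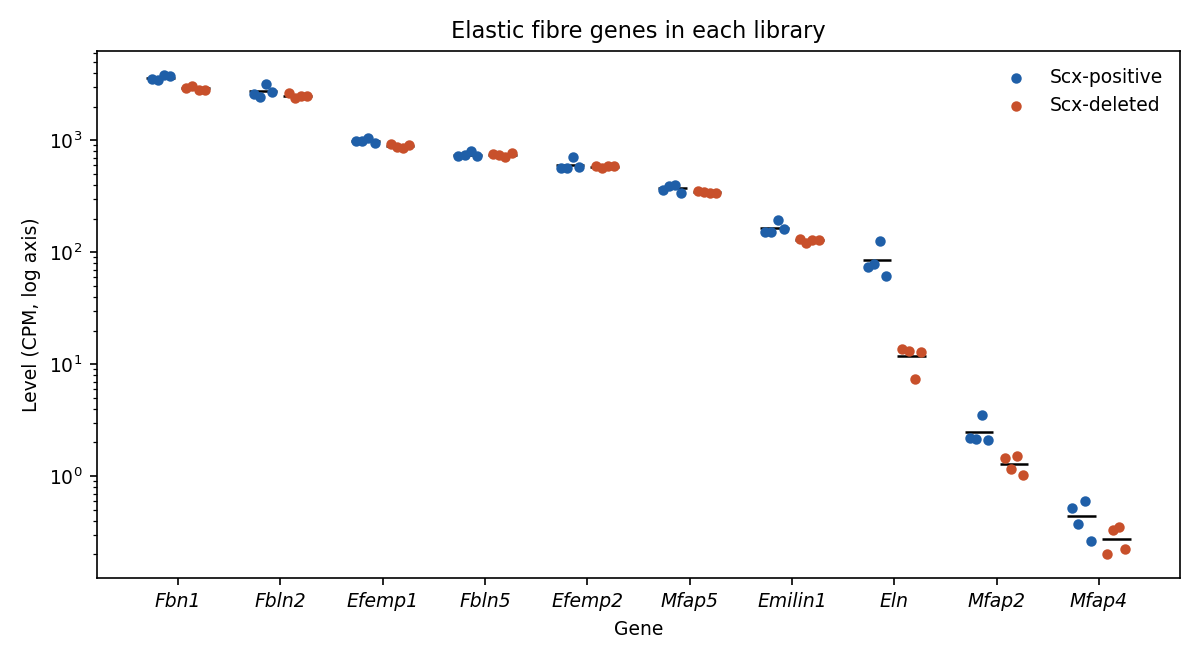
Level of each of the 10 genes in each library, in CPM on a log axis, with Scx-positive libraries in blue and Scx-deleted in red; bars are means of 4 libraries. The groups are widely separated for Eln (60.9 to 127 CPM against 7.37 to 13.6 CPM) and lie close together for the fibulin genes.

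Eln encodes tropoelastin, the monomer of the elastic core (ENSMUSG00000029675.12, GRCm38 chr5:134702593-134747323, minus strand, 37 exons in its longest coding transcript). Its level was 73.7, 78.1, 127 and 60.9 CPM in Scx-positive replicates 2, 3, 5 and 6, and 13.6, 13.2, 7.37 and 12.8 CPM in Scx-deleted replicates 2, 3, 4 and 5. The groups were far apart, and the lowest Scx-positive library was well above the highest Scx-deleted one. The mean Scx-deleted level was 13.8% of the Scx-positive level, with a log2 change whose 95% interval ran from -3.29 to -2.40 (edgeR, adjusted p = 1.50e-07). By size of change in either direction, Eln ranked 5 among the 13125 tested genes. Its counts were large enough for this, 7713 over the Scx-positive and 962 over the Scx-deleted libraries.

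Both groups contained a library that differed from its replicates in Eln. Scx-positive replicate 5 was the highest and Scx-deleted replicate 4 the lowest. The log2 change was -2.57 ± 0.11 (SE) without the former and -2.42 when both were left out, and Eln was still called (edgeR, adjusted p = 3.26e-13 and 2.56e-15).

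The scaffold gene Fbn1 encodes fibrillin-1, the main protein of microfibrils (chr2:125300594-125507993, minus strand, 65 exons). It had 3506, 3442, 3850 and 3720 CPM in Scx-positive replicates 2, 3, 5 and 6, and 2959, 3048, 2822 and 2821 CPM in Scx-deleted replicates 2, 3, 4 and 5. The 2 groups did not overlap, and the spread within each was narrow. The mean Scx-deleted level was 80.2% of the Scx-positive level, and edgeR gave a log2 change of -0.32 ± 0.05 (SE; adjusted p = 0.000120). Fbn2, the gene of fibrillin-2, averaged 8.79 ± 0.576 CPM with Scx and 8.75 ± 1.96 CPM without it (SD, n = 4 per group) and was not called, with a 95% interval of the log2 change from -0.27 to 0.27.

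The 2 genes of microfibril-associated glycoproteins that were abundant enough to test stood at very different levels. Mfap2 encodes MAGP-1, a small protein that binds fibrillin and tropoelastin (chr4:141010418-141015984, plus strand). Its level was 2.21, 2.14, 3.54 and 2.10 CPM in Scx-positive replicates 2, 3, 5 and 6, and 1.47, 1.17, 1.51 and 1.03 CPM in Scx-deleted replicates 2, 3, 4 and 5. The groups did not overlap, and replicate 5 was the high Scx-positive library. Mfap2 fell to 51.9% of the Scx-positive mean, where edgeR gave a log2 change of -0.97 ± 0.21 (SE; adjusted p = 0.00281) from 227 and 103 counts in all. Without Scx-positive replicate 5 the change was -0.74 ± 0.19 with an adjusted p of 0.00410.

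Mfap5 encodes MAGP-2, the second such glycoprotein (chr6:122505845-122529290, plus strand). Per length of exon it was far more abundant than Mfap2, at 103 against 2.06 CPM per kilobase with Scx. It had 358, 391, 399 and 337 CPM with Scx and 352, 342, 341 and 338 CPM without it, in the same replicate orders. The groups overlapped. The log2 change was -0.11 ± 0.05 (SE), with a 95% interval from -0.22 to -0.0055, and was not called after adjustment (edgeR, adjusted p = 0.109). Without Scx-positive replicate 5 it was -0.069 (adjusted p = 0.216), and without replicate 6 it was -0.15 (adjusted p = 0.0265). Mfap4, a microfibril-associated protein gene of the fibrinogen-related family (chr11:61485431-61488900, plus strand), had 6 to 15 counts per Scx-positive and 4 to 7 per Scx-deleted library. It was not tested, and with no filter on low counts its log2 change was -0.69 ± 0.40 (SE), not called by edgeR (adjusted p = 0.256).

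Emilin1 encodes a glycoprotein found where elastin meets the microfibrils (chr5:30913402-30921277, plus strand). Its level was 151, 151, 195 and 160 CPM in Scx-positive replicates 2, 3, 5 and 6, and 133, 120, 130 and 129 CPM in Scx-deleted replicates 2, 3, 4 and 5. All Scx-deleted libraries were below all Scx-positive ones, and replicate 5 was again the highest. Emilin1 fell to 77.6% of the Scx-positive mean, a log2 change of -0.37 ± 0.07 (SE) with an adjusted p of 0.00103, and of -0.27 ± 0.04 without that library (edgeR, adjusted p = 2.38e-05). Its relative Emilin2 fell less, from 591 ± 39.9 to 535 ± 5.86 CPM (SD, n = 4 each; edgeR, adjusted p = 0.0270).

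Of the 4 fibulin genes, Efemp1 fell and the others were not called. Efemp1, the gene of fibulin-3 (chr11:28853204-28926743, plus strand), had 979, 982, 1051 and 946 CPM in Scx-positive replicates 2, 3, 5 and 6, against 919, 872, 848 and 906 CPM in Scx-deleted replicates 2, 3, 4 and 5. The groups came close but did not overlap. Efemp1 fell by 0.16 ± 0.04 (SE) on the log2 scale (edgeR, adjusted p = 0.0124), and this call was lost without Scx-deleted replicate 4 (log2 change -0.14, adjusted p = 0.0513). Fbln2 encodes fibulin-2, which is found with fibrillin and in basement membranes (chr6:91212455-91272540, plus strand). It averaged 2731 ± 307 CPM with Scx and 2507 ± 108 CPM without it (SD, n = 4 per group), with overlapping groups, and was not called (edgeR, adjusted p = 0.172). Its log2 change was -0.12 ± 0.06 (SE) with Scx-positive replicate 5 and -0.041 ± 0.04 without it.

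The 2 fibulins best known for elastic fibre assembly were not called either. Fbln5 encodes fibulin-5, which binds tropoelastin, integrins and a lysyl oxidase (chr12:101746565-101819055, minus strand). It had 723, 740, 794 and 727 CPM with Scx and 750, 746, 712 and 772 CPM without it, in the replicate orders above, and the groups overlapped almost wholly. The 95% interval of its log2 change ran from -0.094 to 0.088 (edgeR, adjusted p = 0.970). Efemp2, the gene of fibulin-4, which brings lysyl oxidase to tropoelastin (chr19:5473954-5482517, plus strand), had 561, 562, 711 and 575 CPM with Scx and 591, 561, 595 and 585 CPM without it. Only replicate 5 lay above the Scx-deleted range. The interval was -0.18 to 0.091 with it, and the log2 change was -0.047 ± 0.06 (SE) with it and 0.049 ± 0.03 without it (edgeR, not called in either fit).

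**Figure D2:**
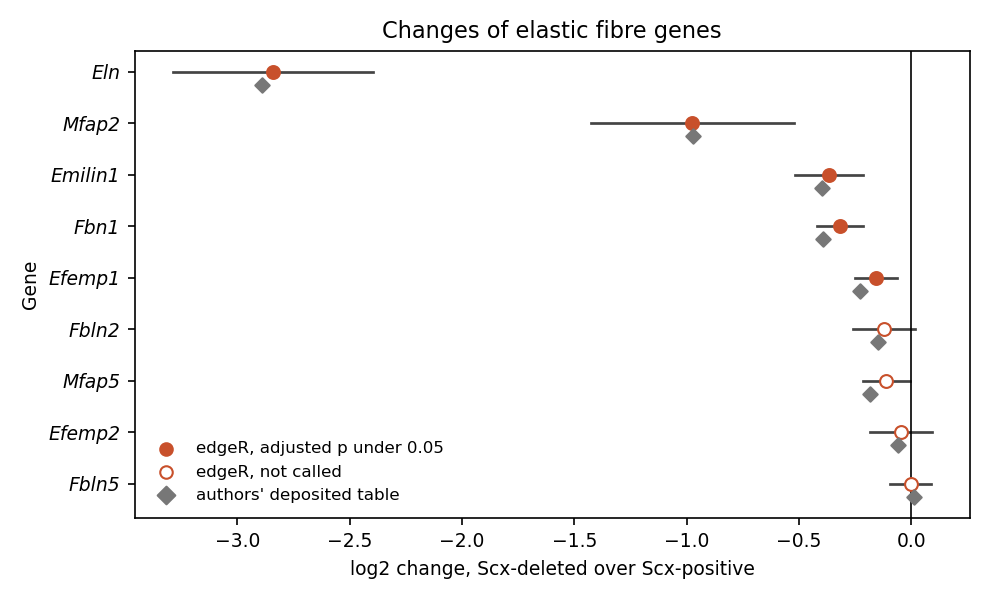
log2 change of Scx-deleted over Scx-positive for the 9 tested genes, with circles and 95% intervals from edgeR (filled where the adjusted p was under 0.05) and diamonds from the authors' deposited table. Eln lies near -2.84, Mfap2 near -0.97, and the circles of the other genes between -0.37 and 0.

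Scx-positive replicate 5 was the highest Scx-positive library for 9 of the 9 tested genes, while it was the highest for 36.1% of all tested genes. Its Scx level, 10.1 CPM, was the highest as well, the 3 others of its group lying at 6.82 to 7.66 CPM. Without it, the same count of 5 genes fell and 0 rose. What sets this library apart was not tested.

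**Figure D3:**
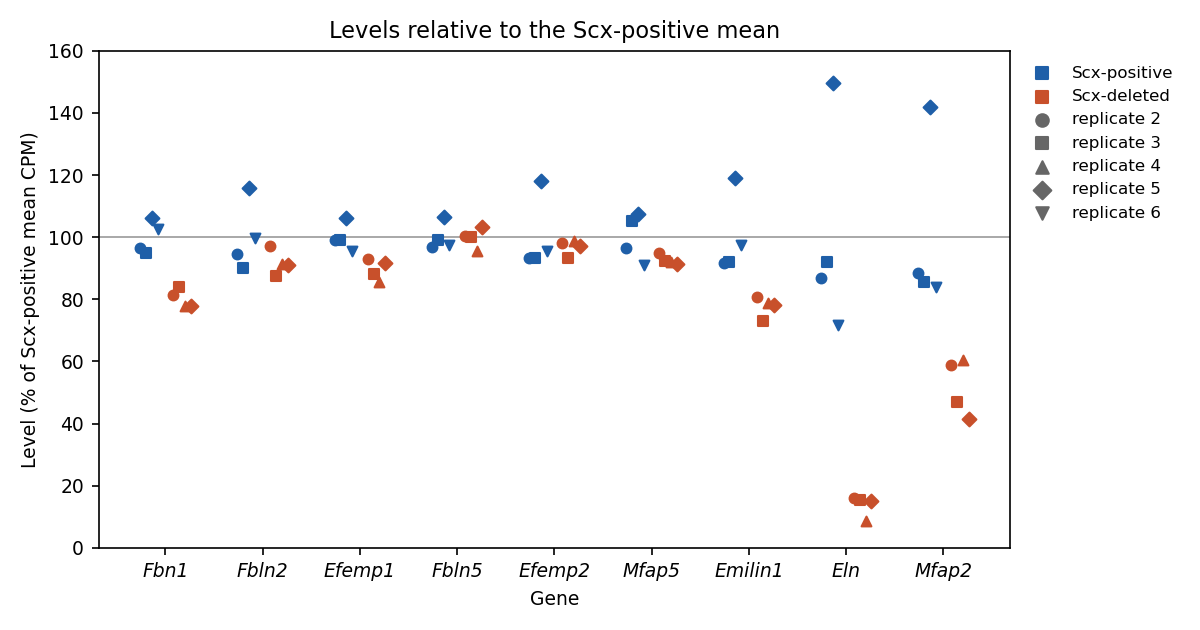
Level of each of the 9 tested genes in each library as a percentage of the Scx-positive mean, with symbols marking the replicate number. Scx-positive replicate 5 (blue diamonds) is the top Scx-positive point of every gene, and the Eln points of the Scx-deleted libraries are near 13.8% on average.

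Scaled by the length of the merged exons of each gene, the elastic fibre genes spanned a wide range in tenocytes. In Scx-positive cells Efemp1 was highest at 486 ± 21.5 CPM per kilobase, then Fbln2 at 429 ± 48.1, Fbn1 at 299 ± 15.6, Efemp2 at 159 ± 19.3, Fbln5 at 108 ± 4.74 and Mfap5 at 103 ± 8.0 (SD, n = 4 each). Emilin1 followed at 33.3 ± 4.29, Eln at 10.5 ± 3.59, Mfap2 at 2.06 ± 0.576 and Mfap4 at 0.229 ± 0.0789 CPM per kilobase. Efemp1 and Fbln2 overlapped across libraries, as did Fbln5 and Mfap5, and the other neighbours in the order did not. Of the fibulin and fibrillin genes listed outside the 10, Fbln7 at 6.77, Fbln1 at 5.62, Hmcn1 at 3.24 and Fbn2 at 0.665 CPM per kilobase were below Eln. In Scx-deleted cells the means of Fbln7, at 5.81, and Fbln1, at 5.23, were above that of Eln, at 1.45. Those of Hmcn1, at 1.34, and Fbn2, at 0.662, were below it.

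In Scx-deleted cells the order of the 10 genes was the same, but Eln, at 1.45 ± 0.362 CPM per kilobase, now overlapped Mfap2, at 1.07 ± 0.190 (SD, n = 4 each). Eln made up 0.636% ± 0.169 of the summed per-length level of the 10 genes in Scx-positive and 0.0994% ± 0.0238 in Scx-deleted cells. That sum itself was 1630 ± 115 against 1455 ± 35.9 CPM per kilobase (SD, n = 4 each), or 89.2% of the Scx-positive level. Merged exons include those of minor transcripts, so these per-length levels are approximate.

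Whether pairs of these genes changed by different amounts was tested with 5 ratios of counts within a library, which do not depend on library scaling. Eln was 1.64% to 3.30% of Fbn1 in Scx-positive and 0.261% to 0.460% in Scx-deleted libraries. The log2 ratio differed by -2.52 ± 0.29 (SE; exact two-sided permutation test over 4 and 4 libraries, p = 0.0286, the smallest this design allows, adjusted p = 0.0476 over the 5 ratios). Relative to Fbln5, Eln was 8.37% to 16% and 1.04% to 1.82% in the 2 groups, a difference of -2.84 ± 0.27 with the same p-values from the exact test. The large fall of Eln was known when these ratios were chosen, so they give its size relative to the scaffold and not independent evidence.

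The ratio of Mfap2 to Mfap5, from 0.548% to 0.889% in Scx-positive and from 0.306% to 0.442% in Scx-deleted libraries, differed by -0.81 ± 0.19 on the log2 scale (SE; exact permutation test, p = 0.0286, adjusted p = 0.0476). The MAGP genes thus changed by unequal amounts in these libraries. Earlier results of these data were known when this ratio was chosen too, so it is not independent evidence. With 1 library left out the difference ranged from -0.89 to -0.66, and the counts of Mfap2 were few. The ratios of Efemp1 to Efemp2 (-0.12 ± 0.06; adjusted p = 0.143) and of Fbln5 to Efemp2 (0.04 ± 0.06; adjusted p = 0.571) did not pass the exact permutation test. Without Scx-positive replicate 5 the Efemp1 to Efemp2 difference was -0.17 with an adjusted p of 0.0357 by that test. The remaining groups did not overlap in this ratio, which gives the smallest p that so few libraries allow. The library left out stood apart in Efemp2 itself, at 711 CPM against 561 to 575 CPM in its group.

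The authors' deposited table called 7 of the 10 genes lower and 0 higher at an adjusted p under 0.05, where it called 14.1% of its 14511 genes lower and 29.2% in either direction. Beside the 5 genes named above it called Fbln2 (log2 change -0.15) and Mfap5 (-0.19). For Eln the authors' deposited table gave -2.89, for Mfap2 -0.97, for Emilin1 -0.40, for Fbn1 -0.39 and for Efemp1 -0.23. Its mean for Eln was 1.13 times the mean of the deposited counts and its mean for Efemp1 1.86 times, so the authors' deposited table was made from other counts than those tested here.

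Sequence upstream of the start site was compared for genes that fell and genes that were not called. Scleraxis belongs to the basic helix-loop-helix family, whose members bind E-boxes, CANNTG. RefSeq windows (GRCm38.p6) of the 250 bases before a start site were at hand for 7 of the 10 genes; Eln, Mfap4 and Mfap5 were not matched. The 4 printed here are the windows that could be shown free of annotated exons, Mfap2 and Efemp1 for genes that fell and Fbln5 and Efemp2 for genes that were not called. Each runs 5′ to 3′ on the gene's strand, in lower case with E-boxes in capitals.
Mfap2, chr4:141010174-141010417, plus strand: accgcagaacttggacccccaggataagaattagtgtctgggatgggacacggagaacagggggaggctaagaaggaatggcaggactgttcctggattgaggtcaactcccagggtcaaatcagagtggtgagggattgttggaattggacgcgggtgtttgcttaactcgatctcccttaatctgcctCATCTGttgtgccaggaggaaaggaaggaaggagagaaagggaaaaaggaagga
Efemp1, chr11:28852955-28853203, plus strand: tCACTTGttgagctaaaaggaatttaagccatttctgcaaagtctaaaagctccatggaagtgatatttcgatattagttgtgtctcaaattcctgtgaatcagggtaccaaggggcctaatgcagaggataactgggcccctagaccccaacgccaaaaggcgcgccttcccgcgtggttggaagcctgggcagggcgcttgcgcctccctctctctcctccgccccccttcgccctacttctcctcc
Fbln5, chr12:101819120-101819369, minus strand: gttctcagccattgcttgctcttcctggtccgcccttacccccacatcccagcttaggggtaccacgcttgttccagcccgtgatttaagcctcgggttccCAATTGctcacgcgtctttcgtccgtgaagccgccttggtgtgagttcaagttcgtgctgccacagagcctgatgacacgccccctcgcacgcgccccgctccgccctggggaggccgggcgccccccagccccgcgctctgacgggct
Efemp2, chr19:5473696-5473945, plus strand: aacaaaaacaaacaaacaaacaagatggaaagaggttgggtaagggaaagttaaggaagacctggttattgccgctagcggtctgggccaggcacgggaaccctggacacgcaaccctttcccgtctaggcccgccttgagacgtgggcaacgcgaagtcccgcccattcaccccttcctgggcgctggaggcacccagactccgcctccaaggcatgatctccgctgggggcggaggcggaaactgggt
The Mfap2 window held 1 E-box, CATCTG, starting 60 bases before the start site, and the Efemp1 window 1, CACTTG, at 249 bases. The Fbln5 window also held 1, CAATTG, at 149 bases, and the Efemp2 window 0. As printed, the Mfap2 and Efemp1 windows were cut to 244 and 249 bases to leave out annotated exon. Of the windows not printed, those of Emilin1 (CAGCTG), which fell, and Fbln2 (CATCTG), not called, held 1 E-box each. Those of Fbn1, which fell, and of the other Mfap2, Fbln5 and Efemp2 start sites held 0. Some of the 7 genes have several start sites. Over all their windows 5 of 11 held CANNTG, which reads the same on both strands in this pattern, against 66.2% of 32817 windows of all genes. Windows of Efemp2 overlapped each other, so the 11 are not separate. Counted by gene, 5 of the 7 had a window with CANNTG. The unrelated motif GGGCGG, searched on both strands, was in 32.7% of all windows, and the Efemp2 and Fbln5 windows shown held 2 each, the Efemp1 window 1 and the Mfap2 window 0. These are matches of letters and were not tested as binding sites.

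The genes whose levels across the 8 libraries were most like those of Eln included Scara5, Clec3b, Pi16 and Col8a2, out of 11652 other tested genes averaging 2 CPM or more. Likeness was the root mean square difference between log2 levels, each centred on its own mean, which was 0.23 for Scara5, 0.25 for Clec3b, 0.29 for Pi16 and 0.40 for Col8a2 against a median of 1.47. Scara5, a ferritin receptor gene, had 37.3, 43.7, 46.2 and 29.4 CPM in Scx-positive replicates 2, 3, 5 and 6 and 4.18 to 5.52 CPM in Scx-deleted libraries. The genes were picked for this likeness, so that they share the highest and lowest libraries of Eln follows from the choice.

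**Figure D4:**
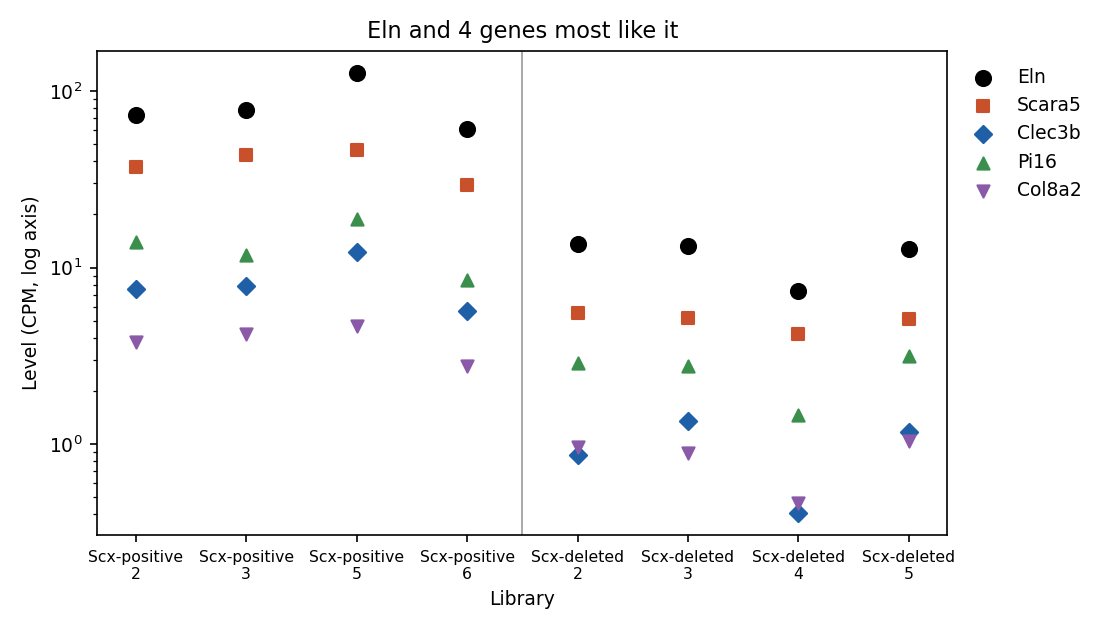
Level of Eln and 4 of the genes most like it in each library, in CPM on a log axis, with Scx-positive libraries left of the line and Scx-deleted libraries right of it. The genes were chosen for following Eln, which is at 127 CPM in Scx-positive replicate 5 and 7.37 CPM in Scx-deleted replicate 4.

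The genes of lysyl oxidases, which cross-link elastin, and of latent TGF-beta binding proteins fell in part. The counts here and for the lists that follow stand beside 14.5% of all tested genes lower and 14% higher, and the lists are too short for a share to be read closely. Of 5 lysyl oxidase genes, 2 fell and 0 rose, with a median log2 change of -0.17. Lox, the founding member, went from 3732 ± 267 to 3133 ± 76.1 CPM, and Loxl2 from 463 ± 16.8 to 340 ± 14.2 CPM (SD, n = 4 each; edgeR, adjusted p = 0.00147 and 1.51e-06). Loxl1, the relative that acts with fibulin-5 on elastic fibres, stood at 575 ± 91.5 and 511 ± 16.8 CPM and was not called (adjusted p = 0.128). Of 4 latent TGF-beta binding protein genes, 2 fell and 0 rose, with a median of -0.24. Ltbp2, which binds fibrillin but not latent TGF-beta, had a log2 change of -0.47 ± 0.07 and Ltbp4, which takes part in elastic fibre assembly, of -0.39 ± 0.10 (SE; edgeR, adjusted p = 0.000129 and 0.0109). Ltbp1 (-0.09) and Ltbp3 (-0.08) were not called.

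ADAMTS and ADAMTS-like proteins include members that bind fibrillin microfibrils. Of 10 genes listed from these families, not each of them checked for such binding, 7 were tested. Of these 5 fell and 0 rose, with a median log2 change of -0.38. Adamtsl1 went from 24.4 to 26.6 CPM in the Scx-positive libraries to 8.24 to 10.6 CPM in the Scx-deleted libraries, with no overlap and a log2 change of -1.42 ± 0.08 (SE; edgeR, adjusted p = 1.80e-08). Adamtsl4, needed for the fibrillin fibres that hold the eye lens, had a log2 change of -0.69, Adamts10 of -0.39 and Adamts6 of -0.22.

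Among 16 other family members and partners, 13 were tested, and 5 fell and 1 rose, with a median of -0.11. Hmcn1, the gene of hemicentin-1, a very large protein of the fibulin family, averaged 68.6 ± 3.16 CPM with Scx and 28.3 ± 3.30 CPM without it (SD, n = 4 per group), and fell by 1.27 ± 0.07 on the log2 scale (SE; edgeR, adjusted p = 8.25e-09). Dcn, the gene of decorin, which also binds microfibrils, had a log2 change of -1.01 and Vcan, the gene of versican, of -0.23. Mfap3l, which shares a name but is a membrane protein gene, rose by 0.30. Fbln1, the gene of fibulin-1, stood at 24.6 ± 2.29 and 22.8 ± 1.98 CPM and was not called. The number that fell was 3 when Scx-deleted replicate 2, 3 or 4 was left out and 2 when replicate 5 was.

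Among genes for the breakdown of elastin more rose than fell. Of 13 proteases and inhibitors, 12 were tested, and 8 rose and 2 fell, with a median log2 change of 0.22. Mmp12, the gene of macrophage metalloelastase, had 4, 1, 4 and 4 counts in Scx-positive replicates 2, 3, 5 and 6 and 25, 22, 25 and 54 counts in Scx-deleted replicates 2, 3, 4 and 5. All Scx-deleted libraries were above all Scx-positive ones, although the level stayed low, at 0.141 ± 0.0584 and 1.54 ± 0.615 CPM (SD, n = 4 each; edgeR, log2 change 3.37 ± 0.40 SE, adjusted p = 1.27e-05). Ctsk, the gene of cathepsin K, a protease of collagen and elastin, went from 129 to 162 CPM in Scx-positive to 235 to 276 CPM in Scx-deleted libraries, a log2 change of 0.80 ± 0.07 (SE; edgeR, adjusted p = 4.54e-07). The gelatinase gene Mmp2 rose by 0.36 on the log2 scale. The inhibitor genes went both ways. Cst3, the gene of the cathepsin inhibitor cystatin C, rose by 0.36 and Timp1, a metalloproteinase inhibitor gene, by 0.11 (edgeR, adjusted p = 0.0494). Both genes that fell encode inhibitors, Timp3 (log2 change -0.15, adjusted p = 0.0165) and Slpi (-0.83, adjusted p = 0.0332). Of 4 tested macrophage and leukocyte markers 2 rose. Cd68 went from 3.05 ± 0.560 to 4.64 ± 0.499 CPM and Csf1r from 1.80 ± 0.245 to 2.97 ± 0.907 CPM (SD, n = 4 each, edgeR adjusted p = 0.00485 and 0.0139). Lyz2 (1.57 and 1.40 CPM) and Cd14 (14.3 and 15.1 CPM) were not called (edgeR adjusted p = 0.578 and 0.457). Ptprc and Adgre1 were near 0 and not tested. The part of macrophages in the rise of Mmp12 and the cathepsin genes was not tested. The number that fell dropped to 0 when Scx-deleted replicate 2 was left out, and to 1 when replicate 3 or 5 of that group, or 2, 3 or 6 of the Scx-positive group, was.

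Of 11 genes of receptors for elastin and microfibrils, 3 rose and 0 fell, with a median log2 change of 0.05. That share of called genes is near the 28.5% called in either direction over all tested genes. The genes that rose were Neu1, from 43.1 ± 4.19 to 71.4 ± 4.92 CPM, Ctsa, from 440.0 ± 35.8 to 601 ± 28.1 CPM, and Lgals3, from 365 ± 16.3 to 530 ± 25.8 CPM (SD, n = 4 each; edgeR, adjusted p = 1.22e-06, 1.73e-05 and 5.50e-07). Neu1 encodes a sialidase and Ctsa its protective protein. Both are lysosomal enzymes that also form part of the elastin receptor complex, and Lgals3 encodes galectin-3. Glb1, the remaining gene of this list besides the integrins, stood at 126 ± 7.92 and 131 ± 2.25 CPM and was not called (edgeR, adjusted p = 0.360). None of the 7 integrin subunit genes was called by edgeR, with log2 changes from -0.12 to 0.09.

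**Figure D5:**
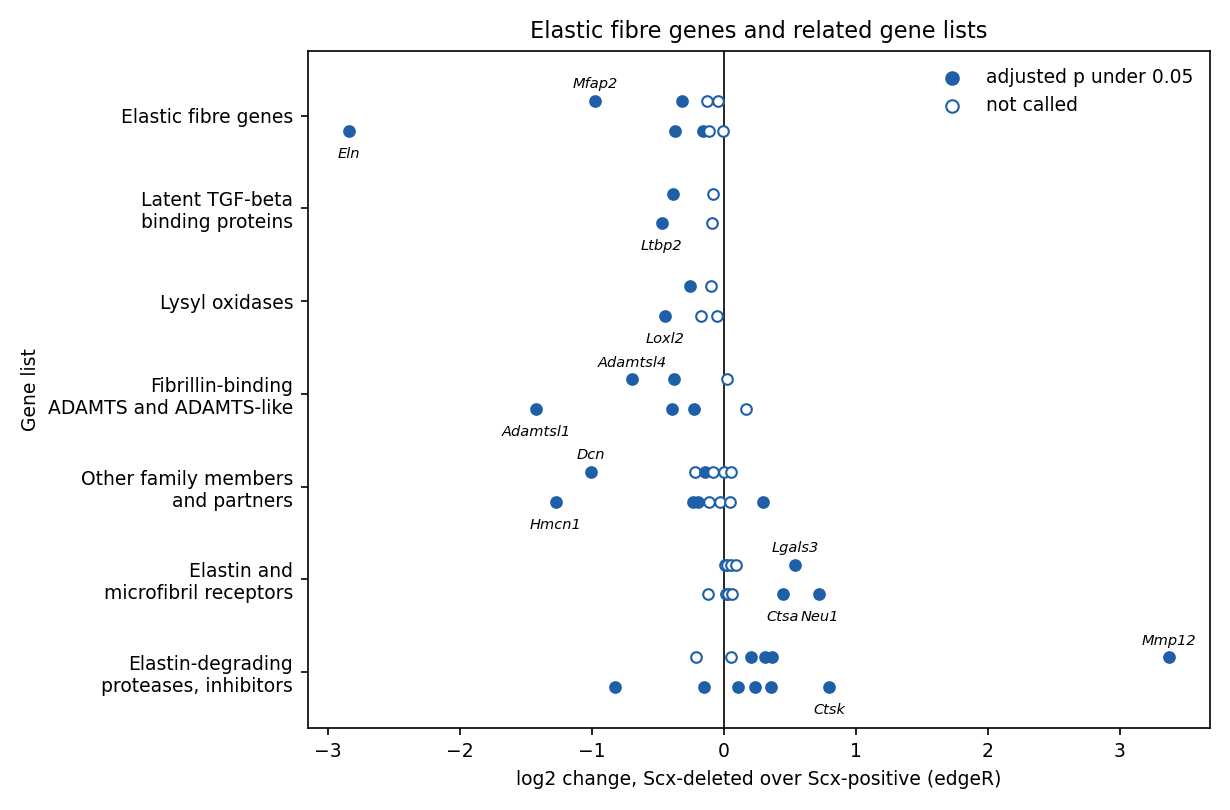
log2 change of Scx-deleted over Scx-positive for every tested gene of the elastic fibre set and 6 related lists, filled where edgeR's adjusted p was under 0.05. Structural, cross-linking, latent TGF-beta binding and ADAMTS lists lie mostly left of 0. The label fibrillin-binding was not checked for each ADAMTS gene. The list of proteases and inhibitors and the receptor list hold all called rises but 1, up to Mmp12 at 3.37. The exception is Mfap3l, at 0.30, among other family members.

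Markers of cell types that a tail tendon culture could hold were read beside these results. Of 10 tendon fibroblast markers 7 fell, Scx itself among them by design, and 1 rose, with summed levels of 8464 to 10647 CPM in Scx-positive and 6655 to 7307 CPM in Scx-deleted libraries. Of 9 sheath and adventitial fibroblast markers 7 fell and 0 rose (1773 to 2048 CPM against 1295 to 1372 CPM). These include Pi16 and Clec3b, which were picked above from the same libraries for their likeness to Eln. That likeness is therefore no separate evidence here. The markers Dpp4 and Ly6a were not called (edgeR, adjusted p = 0.664 and 0.255). Of 11 smooth muscle and mural markers, from cells known for making elastin, 4 fell and 2 rose (2789 to 3382 CPM against 2883 to 3141 CPM), and Acta2 and Myh11 were not called by edgeR (adjusted p = 0.0818 and 0.0825). The part of these cell types in the fall of Eln was not tested.

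The remaining markers were low. Endothelial markers summed to 68.3 to 86.4 CPM in Scx-positive and 49.5 to 54.1 CPM in Scx-deleted libraries, mostly from Tek, with 1 of 3 tested lower and 1 higher, Pecam1 at 0.302 and 0.112 CPM and Cldn5 at 0 counts. Macrophage and leukocyte markers summed to 19.9 to 22.7 and 23.0 to 26.6 CPM, with 2 of 4 tested higher, Cd68 and Csf1r, while the untested ones were near 0, Ptprc at 0.0351 and 0.0642 CPM, and Adgre1 at 0.0217 and 0 CPM. Chondrocyte markers (18.0 to 21.3 and 20.3 to 23.2 CPM) had 1 of 3 tested higher, skeletal muscle markers (34.7 to 40.8 and 26.8 to 36.2 CPM) 1 of 2 lower with Myod1 and Pax7 at 0, keratinocyte markers (2.53 to 3.80 and 3.09 to 4.00 CPM) 0 of 1 called and Schwann cell markers (35.3 to 40.2 and 31.4 to 35.8 CPM) 1 of 5 lower.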

How the data were processed

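mRNA of 8 libraries of mouse tail tenocytes was analysed, in 2 groups of 4 taken from the sample titles. STAR, FastQC, DESeq2 and the build mm10 are named, per the submitters' processing notes; what each did, how reads were counted, on which annotation and whether by strand is not given in the sources used here. Without strand, reads of genes that overlap on opposite strands cannot be told apart, and exons of Eln, Fbn1, Efemp2 and Mfap4 overlap those of another gene by 267, 2442, 173 and 89 bases.

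Every test used the raw counts by gene symbol that the authors deposited. Rows for reads in no feature (7.44% to 8.67% of counts per library) and ambiguous reads (0.490% to 0.567%) were left out. Ambiguous reads were 0.490% to 0.506% in Scx-positive and 0.539% to 0.567% in Scx-deleted libraries. Reads in no feature were 7.52% in Scx-positive replicate 5, 8.32% to 8.67% in the rest of its group and 7.44% to 8.26% in Scx-deleted libraries. The authors' deposited comparison table holds mean normalized counts, a coverage-type signal, log2 fold changes, standard errors, which are scores here, and p-values, per the file headers. Which group its log2 values put on top was read against the counts.

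Counts were fitted in R 4.3.3 with edgeR 4.0.16: filterByExpr (minimum count 10, total 15), TMM scaling, quasi-likelihood test with group as the only term, Benjamini-Hochberg adjustment over all tested genes at 0.05. The SE of a log2 change is its size over the root of the F statistic. The fit was tried on simulated counts with the same variability for every gene and no outlying library. That trial therefore does not cover the more variable genes or Scx-positive replicate 5. The common biological coefficient of variation was 5.50%. Ratios used log2 of counts plus 0.5. Lengths and coordinates came from GENCODE M21 (GRCm38), which held 98.0% of symbols, and promoter windows from RefSeq. No replicate pair agreed within sampling noise (chi-square per degree of freedom 2.42 or more). Pairs with Scx-positive replicate 5 gave 11.6 to 13.3, and all other pairs 2.42 to 4.51.

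Other settings tried were upper-quartile and RLE scaling, no filter, 5 CPM in 4 libraries, DESeq2 1.42.0, limma-voom (limma 3.58.1), a replicate block, numbers 2, 3 and 5 alone, offsets for GC content and transcript length (99.2% of tested genes had both), an adjusted p of 0.01, and each library left out; leaving out Scx-positive 5 with Scx-deleted 4 was chosen after seeing the data. Members, lists and tests were chosen with earlier results of these data known. The text names the 10 genes, Scx, up to 4 called genes per related list by smallest p (every called gene where 4 or fewer were called), Ltbp1 to Ltbp4, Lox, Loxl1, Fbn2, Fbln1, the markers Tnmd, Acta2, Myh11, Pi16, Pecam1 and Ptprc, and the 5 genes closest to Eln, of which 1 is not reported here. Emilin2, Fbln7, Col1a1, Thbs4, Timp1, Timp3, Slpi, Tek, Cldn5, Cd68, Csf1r, Lyz2, Cd14, Adgre1, Glb1, Dpp4, Ly6a, Myod1, Pax7 and the integrin genes fall outside that rule and were chosen after their values were seen.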

Additional observations from a re-analysis of the deposited data

Results flagged for a closer look

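In 3 cases a single library stood apart from the other 3 of its group in the level of a gene, among 32 groups of 4 that were checked (16 genes in 2 groups); by chance about 1 in 20 groups would be picked out. Eln was at 7.37 CPM in Scx-deleted replicate 4, below the 12.8 to 13.6 CPM of the other Scx-deleted libraries. Efemp2 was at 711 CPM in Scx-positive replicate 5, above the 561 to 575 CPM of the other Scx-positive libraries. Mfap2 was at 3.54 CPM in the same library, above 2.10 to 2.21 CPM in the others.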

How the results depend on the processing

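Eln, Fbn1 and Emilin1 stayed lower and called by edgeR, DESeq2 or limma in all 20 alternatives, and Mfap2 in the 19 that tested it. The Eln log2 change ranged from -2.97 to -2.42. The count of elastic fibre genes that fell was 4 to 6 with 1 library left out, 4 to 7 over all alternatives, and 0 rose in any. Efemp1 lost its call without Scx-deleted replicate 4 and at an adjusted p of 0.01 (its own was 0.0124). Fbln2 was called with GC and length offsets (-0.10, adjusted p = 0.0307), and Mfap5 with those offsets (-0.14, adjusted p = 0.0209) and without Scx-positive replicate 6. The log2 change of Fbln5, never called, was above 0 at 0.0087 with numbers 2, 3 and 5 only, 0.0045 with GC and length offsets, 0.019 without Scx-deleted replicate 4, 0.034 without Scx-positive replicate 5 and 0.056 without both; that of Efemp2 was 0.049 and 0.040 in the latter 2 fits. With 1 library left out Fbln5 ranged from -0.018 to 0.034 and Efemp2 from -0.078 to 0.049.

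Replicate numbers 2, 3 and 5 are shared by the groups, and the sample titles do not say what the numbers mean. Deviations of same-numbered libraries correlated at -0.060, 0.16 and 0.057, and those of differently numbered libraries at -0.23 to 0.14. So few pairs cannot settle whether the libraries are paired. With a replicate block 1561 genes were higher and 1676 lower, the Mfap5 log2 change was -0.15 (adjusted p = 0.0365) and that of Fbln5 0.0069, and with GC and length offsets added they were -0.17 (adjusted p = 0.00317) and 0.0027. Swapping genotypes within the 3 numbers, the replicate block gave log2 ratio differences of -2.48 for Eln to Fbn1, -2.78 for Eln to Fbln5 and -0.91 for Mfap2 to Mfap5, with an adjusted p of 0.417 each, since so few pairs cannot pass.

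Over all genes, 1842 rose and 1902 fell, which upper-quartile scaling moved to 1539 and 2288; 1239 fell with numbers 2, 3 and 5 only, and 1191 rose and 1143 fell at an adjusted p of 0.01. Among ADAMTS genes 1 rose with no filter, with GC and length offsets, with these and the block, and without Scx-positive replicate 5 (0 to 1 with a library left out). Of proteases and inhibitors 1 fell with the 5 CPM filter, with DESeq2 and with numbers 2, 3 and 5 only, 0 at an adjusted p of 0.01, and 0 to 2 with a library left out. Of the other family members 2 fell with numbers 2, 3 and 5 only and at 0.01, and 2 to 5 with a library left out. Of lysyl oxidases 4 fell with GC and length offsets, 1 receptor gene fell with offsets and block, and 1 latent TGF-beta binding protein gene fell at 0.01. With a library left out the ratio differences ranged from -0.17 to -0.089 for Efemp1 to Efemp2 and from -0.015 to 0.068 for Fbln5 to Efemp2. The few counts of Mfap2 and Mfap4 limit what can be said of both.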
